A study of Homo sapiens with 15 samples.

Results

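Antisense noncoding genes are transcribed from the strand opposite to a neighbouring gene, and many carry that neighbour's symbol followed by -AS and a number. The genes described here were all those whose GENCODE 29 symbol has this form, whose gene type is not protein coding, and which held at least 150 counts summed over the 15 libraries. EPB41L4A-AS1 was left out by the rule. There were 94 such genes of 47634 identifiers in each count table, and another 1077 genes with a name of this form fell below the minimum, of which 587 were at 0 in every library. The summed counts that chose the genes are used below as a description only. Just inside the minimum stood FBXL19-AS1 with 152 counts, UBA6-AS1 with 154, ZEB1-AS1 with 157 and PPP3CB-AS1 with 158, and just outside stood ENTPD1-AS1 and ASB16-AS1 with 147 each, RARA-AS1 with 145 and NUTM2A-AS1 with 142.

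Transcripts of this kind often begin at a shared, bidirectional promoter and run away from the partner gene, while others overlap the partner's body or its 3′ end. A few have been reported to act on the partner in cis or on other RNAs in trans, and many are short-lived because the nuclear RNA exosome degrades them. Cisplatin forms platinum adducts on DNA that obstruct transcription, and it changes the levels of a large share of transcripts.

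RNA was measured in IGROV-CP20, a cisplatin-resistant line derived from a human ovarian carcinoma. The line is 1 cell line in culture, and each of 5 conditions had 3 replicate libraries, described by the study as biological replicates. Untreated cells received neither drug nor cisplatin, and the cisplatin group received cisplatin alone for 24 h. The other 3 groups were kept for 24 h with Tranilast, an anti-allergic drug, Telmisartan, a blocker of the angiotensin receptor, or Amphotericin B, a pore-forming antifungal agent, and then for 24 h with cisplatin. These groups are called here Tranilast, Telmisartan and Amphotericin B, each with cisplatin included, and each was compared with cisplatin alone to ask what the drug added. No vehicle period before cisplatin is stated for the cisplatin group. The drug and the added 24 h therefore cannot be told apart. QuantSeq libraries read the 3′ ends of polyadenylated RNA, and the deposited values are whole counts per gene, 1510620 to 3517041 per library. Values below are CPM, counts scaled to a common library total over tested genes with TMM factors, so that every level is relative to the bulk of transcripts and a fall in total RNA per cell would not be seen. Fewer cells that make a transcript and less of it per cell cannot be told apart in such bulk samples.

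The 94 genes comprised 62 of GENCODE type antisense, 17 processed transcripts, 12 lincRNAs and 3 transcribed pseudogenes. The 3 pseudogenes are EMC3-AS1, SVIL-AS1 and TP73-AS1, and reads of the first 2 could be shared with a similar copy elsewhere, so that their values are less certain. A partner gene by name was found for 88 of them. In GENCODE 29 on GRCh38, 39 overlapped the partner head to head, 14 lay head to head without overlap, 16 overlapped it tail to tail, 10 spanned the partner and 9 lay inside it. In 41 genes the start lay within 1000 bases of the partner's start. The remaining 6 had no gene of the partner's name, namely HOXB-AS1, HOXB-AS3, HOXC-AS1, HOXC-AS2 and HOXC-AS3, which are named for their HOX cluster, and RPARP-AS1.

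The use of strand in counting is not given in the sources used here. Without strand, reads of an antisense gene and of its partner cannot be told apart where their exons overlap. QuantSeq reads fall near the ends of transcripts. The last 300 bases before the outermost annotated end lay on an exon of an opposite-strand gene in 16 of the 94. They lay on an exon of the partner itself in 7, namely ARRDC1-AS1, ATP2A1-AS1, NIFK-AS1, OIP5-AS1, PITPNA-AS1, TP73-AS1 and VASH1-AS1. The other 9 were CCDC144NL-AS1 on an exon of USP22, EMC3-AS1 of AC022007.1, ERICH6-AS1 of SNRPCP3, HOXB-AS1 of HOXB3, PPP3CB-AS1 of USP54, RAB11B-AS1 of ANGPTL4, RAB30-AS1 of AP001767.2, TPT1-AS1 of SLC25A30 and ZNF561-AS1 of ZNF562. All 16 are uncertain as measures of the antisense strand. Other genes were counted with the use of strand in mind. Of 121 noncoding genes that lie wholly on exons of an opposite-strand gene with at least 1500 counts, 10 held at least 15 counts, and the median of the 121 was 0. No share over all noncoding genes was taken beside it, so that this count by itself does not tell whether strand was used. Among coding genes, 421 had their last 300 bases wholly on exons of an opposite-strand coding gene with at least 150 counts. Of these 421, 65.3% held at least 150 counts, against 49.7% of all coding genes. The 421 were picked opposite a counted gene and all coding genes were not. This difference therefore does not tell whether strand was used either.

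Together the 94 genes took 0.269% to 0.390% of a library's counts. LRRC75A-AS1, also known as a host gene of small nucleolar RNAs, held 60014 of their 124199 counts, or 48.3%. The next largest sums were 4129 for OIP5-AS1, 3814 for EMC3-AS1, 3674 for FGD5-AS1, 3278 for WAC-AS1 and 3208 for OTUD6B-AS1. A typical gene of the group was weakly expressed, with a median over genes of 9.76 CPM and 49 of 94 under 10 CPM on average. At such levels counting error is large, since 3 counts correspond to 0.677 to 2.41 CPM depending on the library.

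Before any comparison, 2 libraries stood apart from their replicates over all tested genes. The chi-square per degree of freedom between replicate counts was 27.6 and 45.0 for cisplatin replicate 1 against the other 2, and 40.1 and 46.8 for Telmisartan replicate 3 against the other 2, while all other replicate pairs gave 2.35 to 8.39. The share of counts on the 2 mitochondrial ribosomal RNA genes moved with this, at 13.7%, 5.61% and 3.41% in the cisplatin libraries and 10.8%, 12.9% and 3.61% with Telmisartan. It was 1.79% to 2.20% in untreated cells, 2.10% to 2.53% with Tranilast and 12.3% to 14.8% with Amphotericin B. On this share cisplatin replicate 1 lay nearer to Telmisartan replicates 1 and 2 than to the other cisplatin libraries. Telmisartan replicate 3 lay nearer to cisplatin replicates 2 and 3 than to the other Telmisartan libraries. Libraries were kept in the groups their labels give, and the cause was not tested. The share was entered as a covariate in 1 alternative fit, and its part in the results was not tested otherwise. The number of antisense genes called in each comparison is also given without both libraries, a setting chosen after the replicates had been compared.

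Of 6 epithelial markers that the line should carry, KRT18, EPCAM, KRT8 and CDH1 held 4770, 1066, 609 and 212 counts in all, while PAX8 and MUC16 were nearly absent, with 1 and 4. With cisplatin CDH1 and KRT18 rose, by 1.89 and 0.64 on the log2 scale, and EPCAM changed by -0.94. Among 5 markers of other cell types, PECAM1 was not analysed here, CD68 and DCN held 30 and 18 counts in all, and PTPRC and COL1A1 passed the filter and were called with cisplatin. The leukocyte marker PTPRC stood at 70.1, 64.5 and 75.4 CPM in untreated cells and at 15.1, 2.45 and 3.57 with cisplatin, and the fibroblast marker COL1A1 stood at 6.38, 8.63 and 6.62 and 14.6, 22.6 and 25.8. Their part in the antisense results was not tested.

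Cisplatin alone changed 26 of the 94 antisense genes against untreated cells, 13 upwards and 13 downwards (edgeR quasi-likelihood test, adjusted p under 0.05). This share lay below the background, since the same test called 44.7% of all 11113 genes and 41.9% of the 1032 tested genes that are not protein coding. Of the noncoding genes 31.3% rose and 10.6% fell, and of all genes 21.1% and 23.6%. The median log2 fold change was 0.02 over the antisense genes, −0.01 over all genes and 0.55 over noncoding genes. In 36 antisense genes the 3 cisplatin and 3 untreated libraries did not overlap, 17 higher and 19 lower, against 53.5% of all genes and 49.1% of noncoding genes. Scaling by library size alone kept the count at 26 but moved its split to 8 higher and 18 lower, and under that scaling the median of all genes was −0.36. Without the 2 libraries that stood apart, 38 antisense genes were called, 19 in each direction, against 55.4% of all genes.

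**Figure D1:**
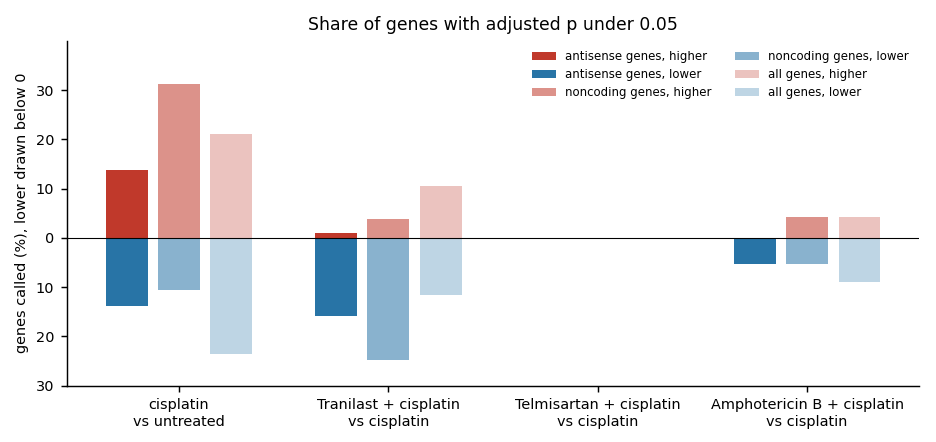
Share of genes called in each of the 4 comparisons, drawn upwards for higher and downwards for lower, for the 94 antisense genes, the 1032 tested noncoding genes and all 11113 tested genes. With cisplatin the antisense bars are equal in height, at 13 genes each way; with Tranilast 15 of the 16 called antisense genes lie below 0; with Telmisartan no bar is drawn because no gene was called.

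The clearest rise with cisplatin was that of EMC3-AS1 (ENSG00000180385), a transcribed pseudogene at chr3:9986893-10006990 on the plus strand of GRCh38, inside EMC3, which encodes a subunit of the membrane protein complex of the endoplasmic reticulum. Its last bases lie on an exon of the opposite-strand AC022007.1. It stood at 42.7, 38.0 and 37.9 CPM in untreated cells, 145, 269 and 158 with cisplatin, 101, 69.8 and 70.9 after Tranilast, 114, 131 and 109 after Telmisartan and 137, 106 and 126 after Amphotericin B. All 3 cisplatin libraries lay above all untreated ones, a 4.82-fold rise with a log2 fold change of 2.27 (SE 0.23, adjusted p = 5.48e-06). MAPKAPK5-AS1 (ENSG00000234608, chr12:111839764-111842902, minus strand) overlaps head to head with MAPKAPK5, which encodes a stress-activated kinase. Its levels were 28.1, 37.7 and 29.3 CPM in untreated cells, 77.8, 119 and 65.1 with cisplatin, 33.5, 30.5 and 25.7 after Tranilast, 59.2, 59.7 and 44.3 after Telmisartan and 75.4, 61.0 and 58.1 after Amphotericin B. The cisplatin and untreated libraries did not overlap and the log2 fold change was 1.46 (SE 0.23, adjusted p = 9.90e-05). ASH1L-AS1 (ENSG00000235919, chr1:155562042-155563944, plus strand) overlaps head to head with ASH1L, which encodes a histone methyltransferase. It held 11.5, 8.92 and 7.64 CPM in untreated cells, 16.2, 66.2 and 47.7 with cisplatin, 16.7, 16.1 and 12.6 after Tranilast, 19.9, 10.5 and 26.4 after Telmisartan and 7.82, 13.6 and 10.4 after Amphotericin B. Cisplatin replicate 1 was far below the other 2 but still above the untreated libraries, and the log2 fold change was 2.23 (SE 0.40, adjusted p = 0.000294).

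RPARP-AS1 (ENSG00000269609, chr10:102449817-102461106, plus strand) has no partner gene of its name. It measured 20.1, 20.7 and 13.2 CPM in untreated cells, 43.1, 55.9 and 39.7 with cisplatin, 22.3, 22.4 and 16.9 after Tranilast, 32.1, 42.5 and 28.6 after Telmisartan and 27.7, 40.1 and 33.5 after Amphotericin B, and rose with cisplatin without overlap by 1.36 (SE 0.24, adjusted p = 0.000265) on the log2 scale. STAM-AS1, which starts 247 bases from STAM, a gene for an endosomal sorting adaptor, and runs away from it, had the largest of the 13 rises as a log2 fold change, 2.54 (SE 0.53, adjusted p = 0.00104), from 1.91, 4.60 and 2.04 CPM to 23.0, 22.1 and 6.35. The other 8 that rose were THUMPD3-AS1, RASAL2-AS1, ZSCAN16-AS1, YTHDF3-AS1, JMJD1C-AS1, LRRC75A-AS1, SVIL-AS1 and PAXIP1-AS1, with log2 fold changes from 0.58 in PAXIP1-AS1 to 1.63 in THUMPD3-AS1. THUMPD3 encodes a subunit of a tRNA methyltransferase, and THUMPD3-AS1 went from 9.25, 17.6 and 17.6 CPM to 22.4, 79.5 and 36.5.

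LRRC75A-AS1, the most abundant of the group, measured 1334, 1169 and 1196 CPM in untreated cells, 3192, 1902 and 1594 with cisplatin, 1172, 1267 and 1159 after Tranilast, 1882, 2204 and 1265 after Telmisartan and 2077, 2287 and 1866 after Amphotericin B. Cisplatin replicate 1, the library with the highest mitochondrial ribosomal RNA share of its group, was the highest of all 15. The log2 fold change with cisplatin was 0.85 (SE 0.25, adjusted p = 0.0112), and it did not pass the threshold without that library (adjusted p = 0.0863) or with the share as a covariate (adjusted p = 0.0865), while it passed with both outlying libraries left out, at 0.50 (SE 0.14, adjusted p = 0.00249).

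VPS9D1-AS1 (ENSG00000261373, chr16:89711856-89718165, plus strand, inside VPS9D1) led the genes that fell. It held 25.2, 25.9 and 20.4 CPM in untreated cells, 5.04, 4.41 and 7.15 with cisplatin, 11.2, 15.5 and 17.8 after Tranilast, 5.61, 10.5 and 6.88 after Telmisartan and 8.53, 7.22 and 8.94 after Amphotericin B. Every cisplatin library was below every untreated library, a 4.20-fold fall with a log2 fold change of -2.07 (SE 0.30, adjusted p = 4.75e-05). VPS9D1 itself held 65 counts in all and was not tested. DLGAP1-AS1 fell by 2.68-fold, from 24.9, 34.0 and 36.7 CPM to 16.8, 9.81 and 9.53 (adjusted p = 0.00205), and CCDC144NL-AS1, whose last bases lie on an exon of USP22, fell from 17.5, 12.7 and 12.7 CPM to 6.72, 3.92 and 6.35 (adjusted p = 0.00321). RNASEH1-AS1, which overlaps head to head with the gene for ribonuclease H1, an enzyme that removes RNA from RNA-DNA hybrids, fell from 69.2, 65.0 and 68.5 CPM to 48.7, 29.4 and 38.1 (adjusted p = 0.00428). UBA6-AS1, FBXL19-AS1, PPP3CB-AS1, HOXC-AS2, KCNJ2-AS1, ZNF561-AS1, EPHA5-AS1, NR2F1-AS1 and SLC16A1-AS1 also fell (PPP3CB-AS1 and ZNF561-AS1 with last bases on an exon of USP54 and ZNF562), with log2 fold changes from -1.86 to -0.72. UBA6-AS1, FBXL19-AS1 and PPP3CB-AS1 are among the genes nearest the count minimum, and UBA6-AS1 held 3.92, 0.981 and 0.397 CPM with cisplatin. The minimum was set on counts summed over all 15 libraries. A gene near it and low with cisplatin passed it mainly through the other groups, so that these falls are tied to the rule.

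Grouped by position, 9 of the 13 that fell were among the 39 genes that overlap the partner head to head, where 2 rose. FBXL19-AS1 and PPP3CB-AS1, both near the count minimum, are among these 9. Among the 55 genes in other positions 11 rose and 4 fell. The median log2 fold change was −0.36 in the 39, 0.06 in the 14 head to head without overlap, 0.31 in the 10 that span the partner and 0.46 in the 16 that overlap it tail to tail. It was -0.28 in the 9 inside the partner and 0.18 in the 6 without a partner gene of their name. Over all noncoding genes tested 31.3% rose and 10.6% fell, and no such share was taken by position. These are descriptions without a test, and a difference by position is not shown.

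Of the 26 calls, 11 passed in each of 26 alternative settings, namely EMC3-AS1, MAPKAPK5-AS1, ASH1L-AS1, STAM-AS1, THUMPD3-AS1, ZSCAN16-AS1 and RPARP-AS1 among those that rose and VPS9D1-AS1, DLGAP1-AS1, CCDC144NL-AS1 and RNASEH1-AS1 among those that fell. The other 15 each lost the call without at least 1 single library, 12 of them without cisplatin replicate 2 and 4 without cisplatin replicate 1.

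**Figure D2:**
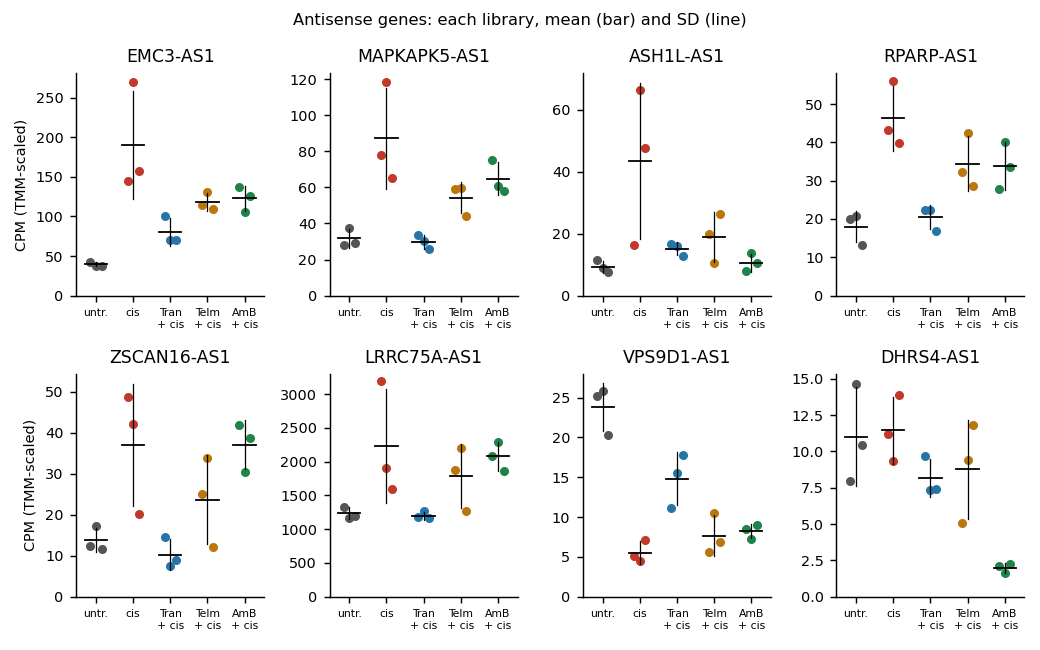
TMM-scaled CPM of 8 antisense genes in each library by condition (untr. untreated, cis cisplatin, Tran Tranilast, Telm Telmisartan, AmB Amphotericin B), with the mean as a bar and the SD as a line, on a linear axis from 0. EMC3-AS1 lies at 145 to 269 CPM with cisplatin and at 69.8 to 101 after Tranilast; DHRS4-AS1 lies at 1.60 to 2.24 CPM after Amphotericin B and above 5 CPM in every other library.

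RefSeq holds a promoter window, from 250 bases before to 50 bases after the annotated start, for 77 of the 94 genes, of which 9 were matched through a newer symbol such as STAM-DT for STAM-AS1. The 5 genes with the smallest adjusted p with cisplatin among those with a window are shown. Each window is placed on the RefSeq start. That start lay 0 bases from the GENCODE start in EMC3-AS1, ASH1L-AS1 and VPS9D1-AS1, 40 in STAM-AS1 and 103 in MAPKAPK5-AS1. The MAPKAPK5-AS1 window lies wholly before the GENCODE start of that gene and does not contain it. EMC3-AS1, MAPKAPK5-AS1, ASH1L-AS1 and STAM-AS1 rose and VPS9D1-AS1 fell, and no window was matched for RPARP-AS1 (GRCh38.p14, 5′ to 3′ on the gene's own strand). Capitals mark the letters of 5 motifs searched on both strands, GGGCGG (the GC box), CCAAT (bound by NF-Y), CCGGAA (an ETS core), TGACG (part of the cyclic AMP response element) and TATAAA (the TATA box). Overlapping matches run together.
EMC3-AS1, chr3:9986643-9986942, plus strand: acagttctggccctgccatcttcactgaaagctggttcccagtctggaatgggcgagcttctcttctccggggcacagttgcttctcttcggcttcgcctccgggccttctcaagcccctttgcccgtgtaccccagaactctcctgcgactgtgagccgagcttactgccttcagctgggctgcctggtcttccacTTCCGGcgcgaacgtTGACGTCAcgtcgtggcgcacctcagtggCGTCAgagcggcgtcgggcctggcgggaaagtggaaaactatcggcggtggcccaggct
MAPKAPK5-AS1, chr12:111842956-111843255, minus strand: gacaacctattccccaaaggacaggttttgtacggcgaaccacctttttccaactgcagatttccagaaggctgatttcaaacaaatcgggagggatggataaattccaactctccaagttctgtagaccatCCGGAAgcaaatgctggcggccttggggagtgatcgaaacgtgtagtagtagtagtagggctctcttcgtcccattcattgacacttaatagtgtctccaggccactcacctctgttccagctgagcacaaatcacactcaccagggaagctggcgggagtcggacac
ASH1L-AS1, chr1:155561792-155562091, plus strand: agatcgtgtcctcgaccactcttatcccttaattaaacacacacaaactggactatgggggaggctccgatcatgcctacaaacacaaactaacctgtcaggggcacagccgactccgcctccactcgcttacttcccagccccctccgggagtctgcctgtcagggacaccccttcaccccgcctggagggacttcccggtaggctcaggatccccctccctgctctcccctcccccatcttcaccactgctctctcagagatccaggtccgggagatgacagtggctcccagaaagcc
STAM-AS1, chr10:17643869-17644168, minus strand: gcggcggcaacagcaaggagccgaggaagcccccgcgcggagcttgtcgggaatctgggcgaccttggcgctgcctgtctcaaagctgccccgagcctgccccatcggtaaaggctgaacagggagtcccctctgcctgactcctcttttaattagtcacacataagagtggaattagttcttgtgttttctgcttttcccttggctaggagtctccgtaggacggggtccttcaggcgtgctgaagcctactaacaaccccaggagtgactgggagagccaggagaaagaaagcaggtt
VPS9D1-AS1, chr16:89711606-89711905, plus strand: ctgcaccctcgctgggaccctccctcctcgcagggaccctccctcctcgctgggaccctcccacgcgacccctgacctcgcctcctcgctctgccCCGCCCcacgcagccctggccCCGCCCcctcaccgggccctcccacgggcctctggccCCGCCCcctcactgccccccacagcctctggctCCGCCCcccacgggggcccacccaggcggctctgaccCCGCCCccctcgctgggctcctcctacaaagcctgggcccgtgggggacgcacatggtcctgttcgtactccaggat

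EMC3-AS1 held 3 matches to TGACG, 2 of them overlapping in a palindrome, and 1 to CCGGAA. MAPKAPK5-AS1 held 1 match to CCGGAA, VPS9D1-AS1 held 5 to GGGCGG, and the windows of ASH1L-AS1 and STAM-AS1 held none of the 5 motifs. Over all 35116 RefSeq windows, GGGCGG was found in 45.0%, CCAAT in 34.6%, TGACG in 24.6%, CCGGAA in 17.2% and TATAAA in 11.5%. Over the 77 windows of antisense genes the shares were 62.3%, 35.1%, 39.0%, 26.0% and 1.30%. Their median GC content was 64.7%, against 58.7% over all windows. These are matches of letters in a window, with no test and no measure of binding.

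Tranilast changed 16 of the 94 antisense genes against cisplatin alone, and 15 of the 16 were lower. The background was 22.2% of all genes and 28.6% of noncoding genes. All genes split into 10.5% higher and 11.6% lower, and noncoding genes into 3.78% higher and 24.8% lower. The median log2 fold change was −0.32 over the antisense genes, 0.02 over all genes and −0.46 over noncoding genes. The Tranilast and cisplatin libraries did not overlap in 31 antisense genes, against 40.3% of all genes and 45.6% of noncoding genes. Every Tranilast library was below in 22 of them, against 18.9% of all and 34.1% of noncoding genes, and above in 9, against 21.4% and 11.5%. This direction rests on scaling: with library size alone the median of all genes moved to 0.46 and that of the antisense genes to 0.14, with 10 genes called, 6 higher and 4 lower. Relative to all genes the antisense median lay lower by a like amount under both scalings, at −0.34 with TMM and −0.33 with library size. Without the 2 libraries that stood apart, 28 were called, 6 higher and 22 lower, against 36.3% of all genes.

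The smallest adjusted p was that of MAPKAPK5-AS1, whose 3 libraries after Tranilast all lay below the 3 with cisplatin, with a log2 fold change of -1.55 (SE 0.23, adjusted p = 0.00122). EMC3-AS1 was also lower without overlap, with a log2 fold change of -1.25 (SE 0.22, adjusted p = 0.00205). ZSCAN16-AS1 (ENSG00000269293, chr6:28121795-28137293, minus strand) spans the zinc finger gene ZSCAN16, which was at 0 in every library. It measured 12.4, 17.3 and 11.7 CPM in untreated cells, 48.7, 42.2 and 20.3 with cisplatin, 14.5, 7.36 and 8.80 after Tranilast, 25.0, 33.7 and 12.1 after Telmisartan and 42.0, 30.5 and 38.8 after Amphotericin B. The 3 values after Tranilast were below the 3 with cisplatin and their log2 fold change was -1.87 (SE 0.37, adjusted p = 0.00351). RPARP-AS1 was lower without overlap, at -1.17 (SE 0.24, adjusted p = 0.00371).

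TBX2-AS1 (ENSG00000267280, chr17:61393456-61411555, minus strand) spans TBX2, a T-box transcription factor gene. It stood at 58.0, 48.6 and 42.5 CPM in untreated cells, 63.3, 68.7 and 47.3 with cisplatin, 30.9, 21.8 and 29.6 after Tranilast, 52.6, 50.3 and 36.9 after Telmisartan and 62.6, 65.8 and 44.0 after Amphotericin B. It was not called with cisplatin alone, at a log2 fold change of 0.26 against untreated cells (adjusted p = 0.344), and was lower after Tranilast than with cisplatin, at -1.12 (SE 0.23, adjusted p = 0.00361). TBX2 itself held 119, 109 and 116 CPM in untreated cells, 52.1, 81.4 and 70.7 with cisplatin, 81.1, 83.7 and 85.1 after Tranilast, 51.0, 71.8 and 90.6 after Telmisartan and 56.9, 81.8 and 37.3 after Amphotericin B, and its adjusted p after Tranilast was 0.41.

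Of the 5 antisense genes of the HOX clusters, which encode homeobox factors of body patterning, 3 were called lower. The share called lower was 11.6% over all genes and 24.8% over noncoding genes. These 5 were set apart after their values had been seen, and a trait of the HOX clusters was not tested. HOXC-AS1 held 39.8, 26.5 and 17.5 CPM with cisplatin and 10.4, 11.2 and 11.5 after Tranilast, a log2 fold change of -1.31 (SE 0.31, adjusted p = 0.00756). HOXB-AS3 changed by -1.06 (SE 0.27, adjusted p = 0.0116) and HOXB-AS1 by -0.83 (SE 0.27, adjusted p = 0.0333). HOXC-AS2, at 0.30 (adjusted p = 0.64), and HOXC-AS3, at -0.77 (adjusted p = 0.13), did not pass. HOXB-AS1, whose last bases lie on an exon of HOXB3, lost its call without any 1 of the Tranilast libraries or without cisplatin replicate 1 or 2, and HOXB-AS3 without Tranilast replicate 2 or 3 or cisplatin replicate 2. Without the 2 outlying libraries HOXB-AS1 stood at -0.41 (SE 0.18, adjusted p = 0.0771) and HOXC-AS3, which then passed, at -0.92 (SE 0.36, adjusted p = 0.0443). ASH1L-AS1 was lower, at -1.53 (SE 0.38, adjusted p = 0.00981), with 1 Tranilast library above the lowest cisplatin library. LRRC75A-AS1 was lower without overlap, at -0.89 (SE 0.25, adjusted p = 0.0186), and STAM-AS1, THUMPD3-AS1, LRP4-AS1, ZNF667-AS1 and MELTF-AS1 were also called lower.

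VPS9D1-AS1 was the single antisense gene higher after Tranilast, at 11.2, 15.5 and 17.8 CPM against 5.04, 4.41 and 7.15 with cisplatin, a log2 fold change of 1.41 (SE 0.31, adjusted p = 0.00518). This comparison and that of cisplatin with untreated cells share the 3 cisplatin libraries, so that their values are not independent. Side by side, the log2 fold changes with cisplatin and then with Tranilast were 2.27 and -1.25 for EMC3-AS1, 1.46 and -1.55 for MAPKAPK5-AS1, 1.36 and -1.17 for RPARP-AS1, 1.41 and -1.87 for ZSCAN16-AS1 and -2.07 and 1.41 for VPS9D1-AS1. EMC3-AS1, MAPKAPK5-AS1, ZSCAN16-AS1, HOXC-AS1 and VPS9D1-AS1 passed in every alternative setting, TBX2-AS1 and RPARP-AS1 in all but the scaling by library size. Without Tranilast replicate 3 the calls of 9 other genes were lost, and without cisplatin replicate 2 those of 8.

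**Figure D3:**
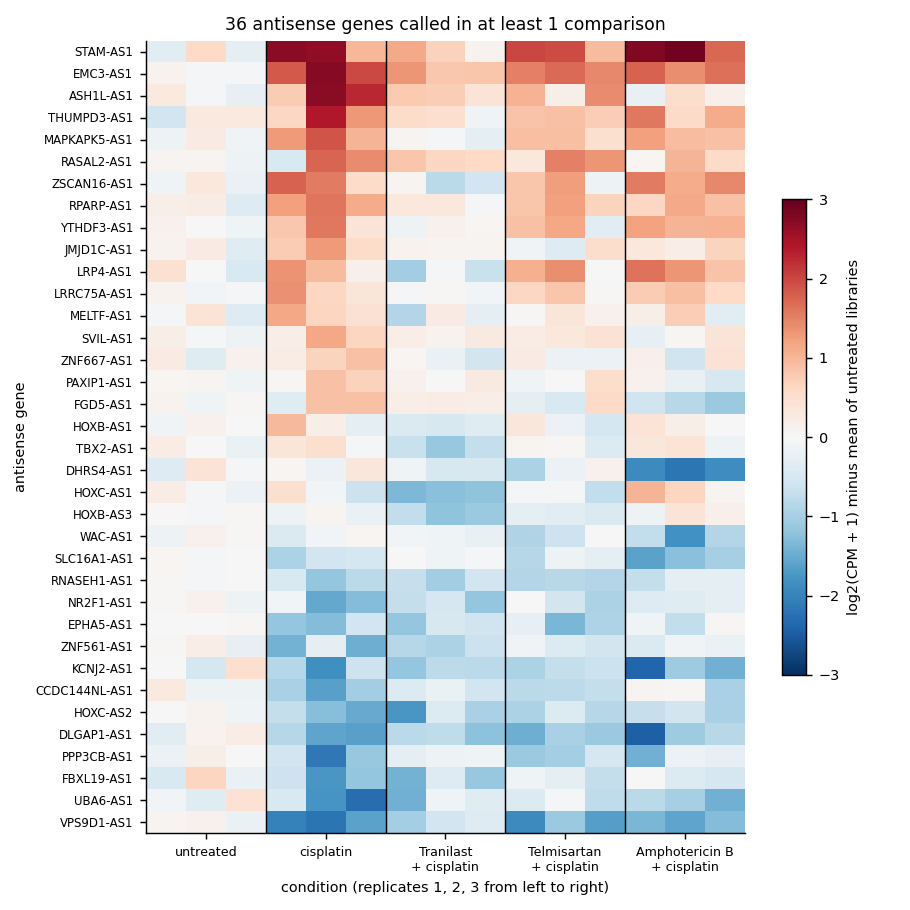
The 36 antisense genes called in at least 1 of the 4 comparisons (ordered from top to bottom by the log2 fold change with cisplatin) in the 15 libraries (from left to right), as log2(CPM + 1) minus the mean of the 3 untreated libraries, red higher and blue lower. STAM-AS1 and EMC3-AS1 lie at the top and VPS9D1-AS1 at the bottom; in ASH1L-AS1 cisplatin replicate 1 is paler than replicate 2, and in RASAL2-AS1 it lies below the untreated mean.

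With Telmisartan 0 antisense genes were called against cisplatin alone, and the background was 0% of all genes and 0% of noncoding genes. At an unadjusted p under 0.05 in edgeR's quasi-likelihood test there were 9 of the 94, 96 of 1032 noncoding genes and 1150 of 11113 genes in all, and the smallest adjusted p was 0.315. DESeq2 called 0 antisense genes and 55 of all genes, and edgeR's likelihood ratio test 0 and 24. The libraries did not overlap in 12 antisense genes, against 9.27% of all genes and 7.66% of noncoding genes. Telmisartan was above in 3 of them, against 4.38% of all and 2.13% of noncoding genes, and below in 9, against 4.89% and 5.52%. Both outlying libraries belong to this comparison. Without them 16 antisense genes were called, 3 higher and 13 lower, against 24.9% of all genes, and without cisplatin replicate 1 alone 3 were called.

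The 5 antisense genes with the smallest p were EMC3-AS1, at -0.69 on the log2 scale, MAPKAPK5-AS1 at -0.69, ASH1L-AS1 at -1.16, JMJD1C-AS1 at -0.85 and C1RL-AS1 at 1.16. Telmisartan libraries lay below all cisplatin libraries in EMC3-AS1, MAPKAPK5-AS1 and JMJD1C-AS1. JMJD1C-AS1 (ENSG00000272767, chr10:63465229-63466563, plus strand) lies inside JMJD1C, a gene of the histone demethylase family, and measured 6.69, 7.48 and 4.58 CPM in untreated cells, 11.2, 16.2 and 9.53 with cisplatin, 6.70, 6.54 and 6.54 after Tranilast, 5.61, 4.42 and 9.36 after Telmisartan and 7.82, 7.22 and 10.4 after Amphotericin B. JMJD1C held 59.3, 67.9 and 65.7 CPM in untreated cells, 30.2, 23.5 and 45.3 with cisplatin, 70.3, 51.5 and 58.2 after Tranilast, 20.9, 16.0 and 58.6 after Telmisartan and 20.6, 24.1 and 15.7 after Amphotericin B. C1RL-AS1 (ENSG00000205885, chr12:7108052-7122501, plus strand), head to head with the complement-related protease gene C1RL, was low throughout, at 3.51, 4.32 and 5.86 CPM in untreated cells, 3.92, 1.96 and 1.59 with cisplatin, 5.95, 5.72 and 6.77 after Tranilast, 4.59, 2.21 and 8.26 after Telmisartan and 6.40, 3.21 and 5.22 after Amphotericin B. C1RL was also low, at 3.51, 5.18 and 3.82 CPM in untreated cells, 1.12, 1.96 and 0.397 with cisplatin, 5.58, 3.54 and 2.93 after Tranilast, 0, 1.10 and 4.13 after Telmisartan and 1.42, 0.802 and 0 after Amphotericin B.

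Without the 2 outlying libraries the smallest adjusted p with Telmisartan was that of FGD5-AS1, with a log2 fold change of -1.25 (SE 0.17, adjusted p = 5.74e-06). It was followed by ASH1L-AS1 at -1.88 (SE 0.28, adjusted p = 2.03e-05), PAXIP1-AS1 at -0.85 (SE 0.19, adjusted p = 0.00127) and EMC3-AS1 at -0.79 (SE 0.20, adjusted p = 0.00442). The 3 that were higher in this setting were NR2F1-AS1, UBA6-AS1 and RAB30-AS1. As given above, UBA6-AS1 lies near the count minimum and is low with cisplatin, so that its difference here is tied to the rule too. Since the libraries were left out after they had been seen, these values are given as a description beside the count of 0.

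Amphotericin B changed 5 of the 94 antisense genes against cisplatin alone, all of them lower. The background was 13.2% of all genes, with 4.21% higher and 9.01% lower, and 9.59% of noncoding genes, with 4.26% higher and 5.33% lower. The median log2 fold change was −0.05 over the antisense genes, −0.04 over all genes and 0.11 over noncoding genes. In 12 antisense genes the Amphotericin B libraries lay below every cisplatin library, against 13.8% of all genes and 10.5% of noncoding genes. They lay above in 6, against 10.9% and 11.9%. With RLE scaling 7 were called, 3 higher and 4 lower. Without the 2 outlying libraries 26 were called, 12 higher and 14 lower, against 43.4% of all genes, so that this count depends on cisplatin replicate 1: without it alone 20 were called.

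DHRS4-AS1 (ENSG00000215256, chr14:23938731-23988839, minus strand) spans DHRS4, which encodes a dehydrogenase/reductase of retinoid and steroid substrates. It stood at 7.97, 14.7 and 10.4 CPM in untreated cells, 11.2, 9.32 and 13.9 with cisplatin, 9.68, 7.36 and 7.45 after Tranilast, 5.10, 9.39 and 11.8 after Telmisartan and 2.13, 1.60 and 2.24 after Amphotericin B. The 3 values after Amphotericin B were the lowest of the 15 libraries, a 5.66-fold difference from cisplatin with a log2 fold change of -2.50 (SE 0.48, adjusted p = 0.00541). The call held in every alternative setting. The counts behind those 3 values were 3, 2 and 3, none above the floor of 3 counts. From the summed counts, 8 against 74, the level was 5.83-fold lower, with an exact 95% interval of 2.81 to 14.0 that covers counting error only.

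ASH1L-AS1 was lower after Amphotericin B, with all 3 libraries below the lowest with cisplatin, at a log2 fold change of -2.04 (SE 0.44, adjusted p = 0.00848). FGD5-AS1 (ENSG00000225733, chr3:14920347-14948424, minus strand) overlaps tail to tail with FGD5, which held 3 counts in all. It measured 90.9, 77.4 and 86.8 CPM in untreated cells, 65.5, 156 and 156 with cisplatin, 97.9, 98.4 and 97.0 after Tranilast, 69.4, 61.3 and 127 after Telmisartan and 56.2, 47.3 and 38.8 after Amphotericin B. Its log2 fold change after Amphotericin B was -1.41 (SE 0.31, adjusted p = 0.00871), with no overlap. WAC-AS1 (ENSG00000254635, chr10:28522652-28532743, minus strand) overlaps head to head with WAC, which encodes an adaptor of histone H2B ubiquitination. It held 86.7, 105 and 98.3 CPM in untreated cells, 71.7, 90.7 and 100 with cisplatin, 91.2, 88.6 and 82.4 after Tranilast, 51.5, 62.4 and 97.7 after Telmisartan and 57.6, 26.5 and 52.2 after Amphotericin B, and the log2 fold change after Amphotericin B was -0.94 (SE 0.27, adjusted p = 0.0283). PAXIP1-AS1 (ENSG00000273344, chr7:155003448-155005703, plus strand) starts 364 bases from PAXIP1, a gene of the DNA damage response, and measured 61.5, 63.0 and 53.7 CPM in untreated cells, 60.5, 110 and 95.7 with cisplatin, 65.1, 60.2 and 71.3 after Tranilast, 54.6, 59.7 and 85.9 after Telmisartan and 64.7, 50.5 and 42.5 after Amphotericin B. The libraries overlapped and its log2 fold change was -0.76 (SE 0.24, adjusted p = 0.0429). PAXIP1 itself held 27.1, 34.0 and 28.8 CPM in untreated cells, 21.8, 48.1 and 35.3 with cisplatin, 36.8, 33.8 and 30.0 after Tranilast, 31.1, 23.8 and 35.2 after Telmisartan and 22.0, 24.1 and 20.9 after Amphotericin B.

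Leaving out cisplatin replicate 2 ended the calls of ASH1L-AS1, FGD5-AS1, WAC-AS1 and PAXIP1-AS1. The call of FGD5-AS1 was also lost without Amphotericin B replicate 3, and that of WAC-AS1 without cisplatin replicate 3 or Amphotericin B replicate 2 or 3. PAXIP1-AS1 lost its call in 16 of the 26 settings.

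Among the most abundant antisense genes, OIP5-AS1 (ENSG00000247556, chr15:41283990-41309737, plus strand), which overlaps tail to tail with the centromere factor gene OIP5, was even across conditions, at 119, 107 and 97.5 CPM in untreated cells, 106, 104 and 109 with cisplatin, 115, 91.3 and 111 after Tranilast, 108, 107 and 103 after Telmisartan and 126, 89.8 and 88.7 after Amphotericin B. Its log2 fold changes in the 4 comparisons ranged from -0.07 to -0.01, with SEs of 0.17 to 0.18. The gene's last bases lie on an exon of OIP5. OTUD6B-AS1 (ENSG00000253738) starts 7 bases from OTUD6B, the gene of a deubiquitinase, and held 91.2, 79.7 and 82.2 CPM in untreated cells, 73.4, 110 and 122 with cisplatin, 68.8, 71.4 and 68.4 after Tranilast, 69.4, 76.2 and 90.8 after Telmisartan and 93.2, 57.7 and 77.5 after Amphotericin B. With all 15 libraries no comparison called it, and the value nearest the threshold was that with Tranilast, -0.55 (SE 0.20, adjusted p = 0.0599), where the Tranilast libraries lay below the cisplatin ones. Without the 2 outlying libraries all 4 comparisons called it, at 0.46 (SE 0.15, adjusted p = 0.0128) with cisplatin, -0.73 (SE 0.16, adjusted p = 0.000454) with Tranilast, -0.67 (SE 0.18, adjusted p = 0.00649) with Telmisartan and -0.61 (SE 0.17, adjusted p = 0.00389) with Amphotericin B. Over all 5 conditions together 32 of the 94 antisense genes differed (edgeR F-test), against 52.3% of all genes and 51.8% of noncoding genes.

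Partner genes were tested for 71 of the named pairs, and in each library the log2 ratio of the antisense gene to its partner was formed from CPM with a prior count of 2. Changes in this ratio were tested with limma over 418 opposite-strand pairs of a noncoding and a coding gene. With cisplatin the ratio changed in 21 of 71 named pairs, 15 upwards and 6 downwards, against 39.7% of all 418 pairs. In 12 of the 21 the partner alone had been called as a gene, in 4 the antisense gene alone and in 5 both. Of all 71 pairs, the log2 fold changes of antisense gene and partner had the same sign in 37. The share of changed ratios was 9 of 37 where the starts lay within 1000 bases and 12 of 34 in other positions. Among the 70 partner genes tested, 10 rose and 26 fell with cisplatin, against 21.1% and 23.6% of all genes.

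**Figure D4:**
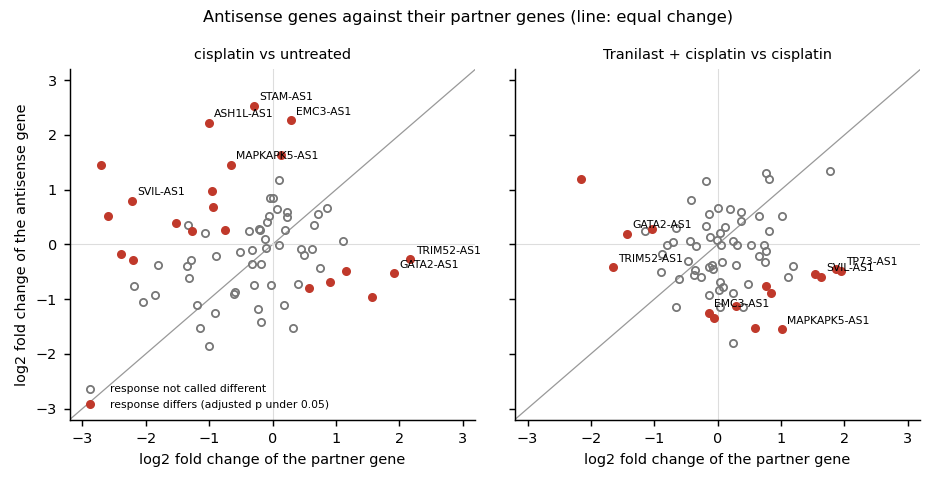
Log2 fold change of the antisense gene (vertical) against that of its partner (horizontal) for the 71 named pairs, with cisplatin on the left and with Tranilast on the right; filled points are pairs whose ratio changed (limma, adjusted p under 0.05) and the line marks equal change. Filled points lie on both sides of the line, 15 above and 6 below with cisplatin, 4 above and 11 below with Tranilast.

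The smallest p with cisplatin was that of GATA2-AS1 (ENSG00000244300, chr3:128489212-128502348, plus strand) and GATA2, a zinc finger transcription factor gene. GATA2-AS1 held 20.7, 27.6 and 22.7 CPM in untreated cells, 17.4, 15.7 and 16.3 with cisplatin, 18.2, 16.9 and 21.2 after Tranilast, 18.4, 19.3 and 16.0 after Telmisartan and 22.8, 15.2 and 23.9 after Amphotericin B. GATA2 held 15.3, 12.9 and 17.1 CPM in untreated cells, 49.3, 77.5 and 44.9 with cisplatin, 22.0, 19.1 and 22.3 after Tranilast, 59.7, 51.4 and 35.5 after Telmisartan and 56.9, 47.3 and 57.4 after Amphotericin B. GATA2 rose 3.77-fold with cisplatin with no overlap, while GATA2-AS1, whose cisplatin libraries lay below the untreated ones, was at a log2 fold change of -0.53 (adjusted p = 0.0661), and the log2 ratio changed by -2.33 (SE 0.34, adjusted p = 5.05e-05). TRIM52-AS1 (ENSG00000248275, chr5:181261212-181272307, plus strand) and TRIM52, a gene of the RING-finger ubiquitin ligase family, start 73 bases apart. TRIM52-AS1 measured 12.8, 14.1 and 12.0 CPM in untreated cells, 13.4, 10.3 and 8.74 with cisplatin, 10.05, 6.54 and 7.67 after Tranilast, 15.8, 11.6 and 8.26 after Telmisartan and 24.2, 19.2 and 17.1 after Amphotericin B. TRIM52 measured 9.25, 5.75 and 10.9 CPM in untreated cells, 43.1, 52.5 and 23.0 with cisplatin, 16.0, 12.5 and 9.48 after Tranilast, 33.2, 37.6 and 25.0 after Telmisartan and 30.6, 35.3 and 35.8 after Amphotericin B. The partner rose 4.51-fold without overlap, the antisense gene did not pass the test, and the ratio changed by -2.32 (SE 0.39, adjusted p = 0.000162).

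SVIL-AS1 (ENSG00000224597, chr10:29409402-29487745, plus strand) overlaps tail to tail with SVIL, which encodes the actin-binding protein supervillin. Its levels were 8.93, 7.48 and 6.87 CPM in untreated cells, 8.96, 18.6 and 12.7 with cisplatin, 8.93, 8.45 and 9.48 after Tranilast, 9.19, 9.94 and 10.7 after Telmisartan and 6.40, 8.02 and 10.4 after Amphotericin B. SVIL itself stood at 27.4, 23.0 and 22.1 CPM in untreated cells, 9.52, 2.94 and 3.57 with cisplatin, 17.9, 15.5 and 15.1 after Tranilast, 10.2, 13.8 and 8.81 after Telmisartan and 10.7, 8.82 and 15.7 after Amphotericin B. The antisense gene rose by 0.80 (SE 0.29, adjusted p = 0.0315) and the partner fell 4.66-fold (adjusted p = 9.77e-05), so that the ratio changed by 2.86 (SE 0.47, adjusted p = 0.000134). In the EMC3 pair the antisense gene was called and EMC3 was not, with EMC3 at 55.5, 64.2 and 51.9 CPM in untreated cells, 51.5, 71.1 and 85.4 with cisplatin, 64.0, 67.9 and 57.5 after Tranilast, 58.7, 49.7 and 55.9 after Telmisartan and 49.8, 54.5 and 44.0 after Amphotericin B, and the ratio changed by 1.94 (SE 0.34, adjusted p = 0.000186). ASH1L-AS1 and ASH1L were both called in opposite directions. ASH1L held 72.4, 69.6 and 70.3 CPM in untreated cells, 47.0, 30.4 and 28.6 with cisplatin, 46.9, 52.3 and 58.2 after Tranilast, 34.7, 54.1 and 44.0 after Telmisartan and 61.2, 38.5 and 49.9 after Amphotericin B, a log2 fold change with cisplatin of -1.01 (SE 0.22, adjusted p = 0.00167), and the ratio changed by 2.95 (SE 0.56, adjusted p = 0.000363). MAPKAPK5 was at 11.8, 13.2 and 9.42 CPM in untreated cells, 7.28, 6.38 and 7.94 with cisplatin, 12.7, 13.9 and 16.9 after Tranilast, 11.7, 11.6 and 13.8 after Telmisartan and 8.53, 9.62 and 12.7 after Amphotericin B, and the change of the ratio was 2.02 (SE 0.40, adjusted p = 0.00047).

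The other 15 of the 21 pairs were named for MNX1, TTC28, RNASEH1, JMJD1C, RASAL2, STAM, FRY, TMCC1, THUMPD3, TP73, GABPB1, ZEB1, ATP6V0E2, TBX2 and ID2, with changes of the log2 ratio from −2.69 in MNX1-AS1 to 3.78 in RASAL2-AS1.

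**Figure D5:**
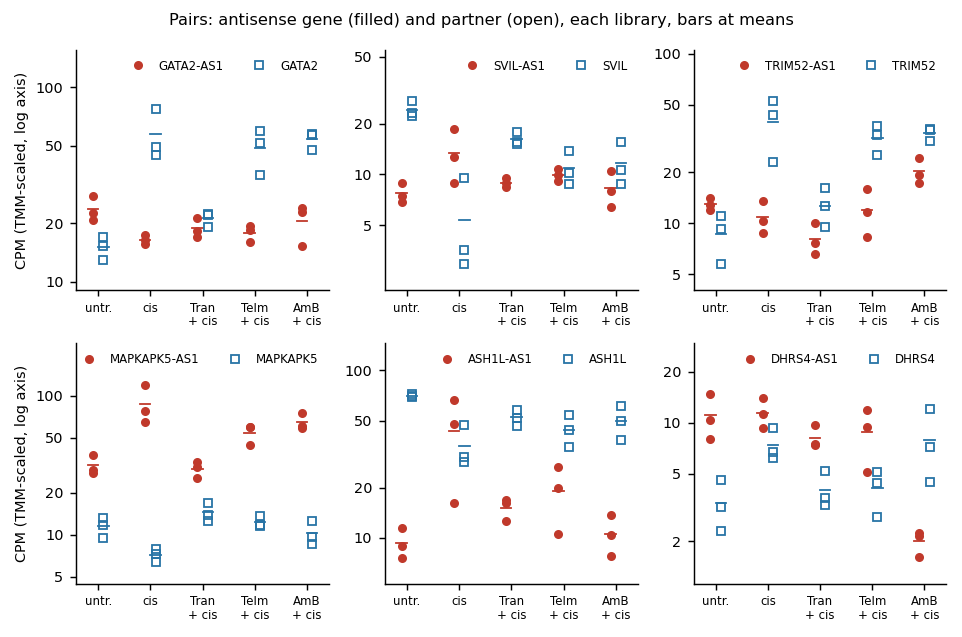
CPM of 6 antisense genes (filled circles) and their partners (open squares) in each library by condition, on a log axis, with bars at the means. GATA2 and TRIM52 rise with cisplatin while their antisense genes do not; ASH1L-AS1 rises and ASH1L falls; DHRS4-AS1 falls after Amphotericin B to 1.60 to 2.24 CPM while DHRS4 stays at 4.47 to 12.1 CPM.

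With Tranilast the ratio changed in 15 of 71 pairs, 4 upwards and 11 downwards, against 27.3% of all pairs. In 8 of the 15 the partner alone had been called as a gene, in 4 the antisense gene alone, in 1 both and in 2 neither. The smallest p was in the MAPKAPK5 pair, where the antisense gene was lower and MAPKAPK5 higher than with cisplatin (log2 fold change 1.01 (SE 0.27, adjusted p = 0.0136)), a change of the ratio of -2.41 (SE 0.40, adjusted p = 0.000478). GATA2 was lower after Tranilast by 2.70-fold and its ratio changed by 1.55 (SE 0.34, adjusted p = 0.00424). SVIL was higher by 3.11-fold and its ratio changed by -2.11 (SE 0.47, adjusted p = 0.00447). TP73-AS1 (ENSG00000227372, chr1:3735511-3747373, minus strand), whose last bases lie on an exon of the p53-family gene TP73, measured 8.29, 10.9 and 7.89 CPM in untreated cells, 10.6, 11.8 and 13.1 with cisplatin, 10.8, 7.90 and 7.22 after Tranilast, 12.2, 15.5 and 12.1 after Telmisartan and 7.82, 3.21 and 5.96 after Amphotericin B. TP73 was at 4.78, 4.89 and 5.60 CPM in untreated cells, 3.92, 0 and 1.59 with cisplatin, 6.33, 4.91 and 9.25 after Tranilast, 3.57, 3.87 and 4.13 after Telmisartan and 3.56, 4.81 and 5.96 after Amphotericin B, and the ratio changed by -2.29 (SE 0.58, adjusted p = 0.00907). Among the 70 partner genes 11 were higher and 6 lower after Tranilast, against 10.5% and 11.6% of all genes, while the antisense genes of the 71 pairs were called in 9, so that partner and antisense gene were both called in 1 pair, MAPKAPK5, in opposite directions.

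With Amphotericin B the ratio changed in 4 of 71 pairs, all downwards, against 12.7% of all pairs. DHRS4 held 3.19, 2.302 and 4.58 CPM in untreated cells, 6.16, 9.32 and 6.75 with cisplatin, 5.21, 3.27 and 3.61 after Tranilast, 5.10, 2.76 and 4.40 after Telmisartan and 12.1, 7.22 and 4.47 after Amphotericin B, and the ratio of DHRS4-AS1 to DHRS4 changed by -2.15 (SE 0.51, adjusted p = 0.0151). The others were TP73-AS1 at -2.46 (SE 0.58, adjusted p = 0.0151), ASH1L-AS1 at -2.27 (SE 0.56, adjusted p = 0.0151) and SVIL-AS1 at -1.76 (SE 0.47, adjusted p = 0.0233). In the DHRS4 and ASH1L pairs the antisense gene alone had been called as a gene. In the TP73 and SVIL pairs neither gene had been called, and TP73 was low with cisplatin, as given above. WAC and WAC-AS1, by contrast, were both lower after Amphotericin B. WAC held 340, 364 and 371 CPM in untreated cells, 111, 266 and 376 with cisplatin, 345, 372 and 373 after Tranilast, 160, 150 and 351 after Telmisartan and 95.3, 148 and 90.9 after Amphotericin B, its log2 fold change was -1.17 (SE 0.36, adjusted p = 0.0389), and the ratio changed by 0.03 (SE 0.42, adjusted p = 0.967). No ratio changed with Telmisartan, where 3 of 71 had an unadjusted p under 0.05, against 39 of all 418 pairs, and the smallest p belonged to the MAPKAPK5 pair, at -1.36 (SE 0.40, adjusted p = 0.28), followed by SVIL-AS1 at -1.42 (SE 0.47, adjusted p = 0.415), ASH1L-AS1 at -1.37 (SE 0.56, adjusted p = 0.5) and TRAM2-AS1 at -0.81 (SE 0.39, adjusted p = 0.5). TRAM2-AS1 (ENSG00000225791, chr6:52577307-52583993, plus strand) held 13.4, 13.2 and 13.0 CPM in untreated cells, 11.2, 11.8 and 13.9 with cisplatin, 9.68, 8.72 and 10.2 after Tranilast, 8.16, 7.73 and 9.36 after Telmisartan and 9.24, 9.62 and 11.2 after Amphotericin B, and its partner TRAM2, a gene of a protein of the endoplasmic reticulum translocation site, held 16.3, 15.8 and 16.5 CPM in untreated cells, 6.16, 12.8 and 19.1 with cisplatin, 15.3, 13.9 and 18.1 after Tranilast, 12.2, 14.9 and 16.5 after Telmisartan and 11.4, 5.61 and 14.9 after Amphotericin B. Without the 2 outlying libraries 11 ratios of named pairs changed with Telmisartan, against 10.3% of all pairs, and 16 with Amphotericin B, against 32.8%. In that setting 29 changed with cisplatin and 16 with Tranilast, against 42.3% and 28.5%.

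The nuclear exosome and its cofactors, which break down many noncoding transcripts, were listed as 21 genes, all tested. With cisplatin 7 rose and 4 fell, against 21.1% and 23.6% of all genes. MTREX, a helicase of the exosome's nuclear adaptor complexes, changed by -1.12 (SE 0.18, adjusted p = 9.61e-05), ZCCHC8, a subunit of an adaptor, by -0.68 (SE 0.22, adjusted p = 0.0184) and ZCCHC7, a subunit of another, by -1.35 (SE 0.30, adjusted p = 0.00166), while the core subunits EXOSC2 and EXOSC4 rose by 1.24 (SE 0.22, adjusted p = 0.000252) and 1.12 (SE 0.22, adjusted p = 0.000659). After Tranilast 4 were higher and 3 lower than with cisplatin, against 10.5% and 11.6% of all genes, and MTREX stood at 0.78 (SE 0.17, adjusted p = 0.00574). Telmisartan changed 0, and Amphotericin B 1 upwards, MTREX, and 1 downwards, EXOSC6, against 4.21% and 9.01% of all genes.

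Of 20 widely studied long noncoding genes without such a name, 14 were tested. With cisplatin 7 rose and JPX fell, against 31.3% and 10.6% of all noncoding genes tested. After Tranilast 0 were higher and 4 lower, against 3.78% and 24.8%. With Telmisartan 0 changed, and after Amphotericin B CYTOR was higher and NORAD and TUG1 were lower, against 4.26% and 5.33%. KCNQ1OT1, an antisense transcript of KCNQ1, changed by 2.61 (SE 0.47, adjusted p = 0.000315) with cisplatin and by -2.07 (SE 0.46, adjusted p = 0.00545) after Tranilast. DANCR changed by 1.97 (SE 0.46, adjusted p = 0.00229) and -2.35 (SE 0.47, adjusted p = 0.00348), and MALAT1, a nuclear speckle RNA, by 1.26 (SE 0.37, adjusted p = 0.0117) with cisplatin.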

How the data were processed

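Counts of QuantSeq 3′ reads per Ensembl gene were used as the authors deposited them, 1 table per library, with no columns of other samples. The labels' processing notes name STAR 2.3.0, HTSeq and hg19. The annotation release, the counting mode and its use of strand are not given in the sources used here. Symbols, gene types and positions were taken from GENCODE 29 on GRCh38 by Ensembl gene identifier, which matched 45776 of 47634 identifiers. Coordinates are therefore those of GRCh38 and not of the build used for mapping.

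Libraries were grouped by their labels into 5 conditions of 3. With 1510620 to 3517041 counts per library, 3 counts stand for 0.677 to 2.41 CPM. Low genes were filtered with filterByExpr, which kept 11113 genes and all 94 antisense genes. Conditions were compared by edgeR 4.0.16 (R 4.3.3) with TMM factors and the quasi-likelihood F-test, fitted on all 15 libraries so that the groups share 1 estimate of the spread, with 2-sided p-values adjusted by Benjamini-Hochberg over all genes tested. An SE is the absolute log2 fold change divided by the square root of F. Ratios of antisense gene to partner were log2 CPM differences (prior count 2) tested with limma 3.58.1 and adjusted over 418 pairs. Their changes are on another scale than the edgeR fold changes and need not equal their difference. Where the libraries of a group came from is stated only as biological replicates of 1 line, so that p-values measure the spread between these libraries.

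Both tests were checked on simulated counts with known changes. At simulated folds of 0.25 and 4 the edgeR test recovered 42 of 50 and 49 of 50 changed genes. At folds of 0.5 and 2 it recovered 15 of 48 and 17 of 50. The pair test recovered 8 of 21 and 14 of 23 changed pairs at folds of 0.25 and 4. A gene or pair that was not called is therefore not shown to be unchanged. The edgeR rates were taken over 10874 fitted genes, of which 10676 were left unchanged. In the data 44.7% of all genes were called with cisplatin. No rate was taken for the antisense genes or for genes at their low level. The rates therefore do not give the recovery among the antisense genes. Alternatives were RLE factors, library size only, 2 other filters, DESeq2 1.42.0, edgeR's likelihood ratio test, limma-voom, the 6 libraries of a comparison alone, a replicate block, another prior count or variance prior for pairs, and each library left out in turn. Added after the values had been seen were a covariate and the omission of cisplatin replicate 1 with Telmisartan replicate 3.

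The antisense genes, gene lists, markers and tests were chosen with earlier results of these data known. Values in every library are given for the 5 antisense genes with the smallest adjusted p in each comparison with their tested partners, for the 6 with the largest summed counts and for the 4 pairs with the smallest p in each comparison. Other named genes were chosen after their values were seen. Promoter sequences are those of RefSeq for GRCh38.p14. Figures were drawn with matplotlib 3.10.9.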

Additional observations from a re-analysis of the deposited data

How the results depend on the processing

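Leaving out cisplatin replicate 1 and Telmisartan replicate 3 together, 38 antisense genes were called with cisplatin, against 26. For antisense genes called after Tranilast, against 16, library size scaling gave 10, the likelihood ratio test 26 and leaving out both libraries 28. With Telmisartan, against 0, the mitochondrial ribosomal RNA share as a covariate gave 4 and leaving out both libraries 16. With Amphotericin B, against 5, the unfiltered fit and DESeq2 gave 8 each, the likelihood ratio test 12, the 6 libraries alone 1, the covariate 2 and leaving out both libraries 26. Over the 5 conditions, against 32, the likelihood ratio test gave 49 and leaving out both libraries 56. For all genes with Telmisartan, against 0, the unfiltered fit gave 2, DESeq2 55, the likelihood ratio test 24, the covariate 333 and leaving out both libraries 2801. For all genes with Amphotericin B, against 1469, the 6 libraries alone gave 89, the covariate 538 and leaving out both libraries 4882, which also gave 4087 for Tranilast against 2462. For pairs it gave 11 with Telmisartan against 0 and 16 with Amphotericin B against 4. Library size scaling split all genes called with cisplatin into 1019 higher and 3351 lower, and those called after Tranilast into 2582 and 397.

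Leaving out each library in turn gave 14 to 29 antisense genes with cisplatin, 7 to 24 with Tranilast, 0 to 3 with Telmisartan, 1 to 20 with Amphotericin B and 24 to 45 over the 5 conditions. For pairs the ranges were 13 to 24, 4 to 19, 0 to 2 and 0 to 15 in the same order of comparisons. For all genes they were 3607 to 5587, 1094 to 3269, 0 to 545, 209 to 3834 and 4733 to 7075. The lowest count with cisplatin was reached without cisplatin replicate 2, and counts of 16 without untreated replicate 2 or 3. With Tranilast it fell to 7 without Tranilast replicate 3 and to 8 without cisplatin replicate 2. With Amphotericin B it was 20 without cisplatin replicate 1, 11 without Telmisartan replicate 3, 3 without cisplatin replicate 3 or Amphotericin B replicate 3 and 1 without cisplatin replicate 2. The cause was not tested.

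A replicate block in the fit left 26, 16, 0 and 5 antisense genes called in the 4 comparisons, and gave 9 pairs with Amphotericin B against 4. Deviations of same-numbered libraries correlated at −0.235 to 0.631, and not every value was above 0.1. The labels give these libraries only a shared number, and the block was not used. Deviations were taken within groups of 3, some of which hold an outlying library. These values therefore cannot show whether same-numbered libraries were handled together.

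For the 47 calls of single antisense genes in the 4 comparisons, refits under all these settings kept the direction wherever they gave a value, 1028 of them past the threshold and 193 short of it. RASAL2-AS1 with cisplatin had no value in the fit on the 6 libraries alone. At 1510620 to 3517041 counts per library, where 3 counts stand for 0.677 to 2.41 CPM, counting error limits the low genes most.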
